A study of Mus musculus with 36 samples.

Results

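The accessibility of chromatin around 7 genes that set whether a T cell lives or dies was followed in mouse CD4 T cells: Bcl2, Bcl2l1, Bcl2l11, Mcl1, Bcl2a1b, Fas and Cflar. A peak was taken as a member when the protein-coding transcription start site (TSS) nearest to its midpoint was that of 1 of these genes, or when it overlapped the body of 1 of them, in the GENCODE annotation of GRCm39. The genes lie at chr1:106465908-106642060 (Bcl2, - strand), chr2:152622582-152673655 (Bcl2l1, - strand), chr2:127967958-128004476 (Bcl2l11, + strand), chr3:95566026-95570487 (Mcl1, + strand), chr9:89081262-89089889 (Bcl2a1b, + strand), chr19:34268001-34305173 (Fas, + strand) and chr1:58750321-58798047 (Cflar, + strand). The rule gave 122 of the 71509 peaks used, with 46 at Bcl2, 40 at Bcl2l11, 13 at Cflar, 7 at Bcl2l1, 7 at Fas, 5 at Mcl1 and 4 at Bcl2a1b, and no measured value entered it. Of these peaks, 9 covered a protein-coding TSS, 63 lay in introns, 4 overlapped exons away from a TSS, 22 were upstream and 24 downstream of their gene.

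ATAC-seq, in which the Tn5 transposase cuts and tags open chromatin, was made from splenic CD4 T cells in 12 groups of 3 libraries. HP1α and HP1γ are heterochromatin proteins that bind methylated histone H3. HP1α knock-out (KO) mice were Hp1a-/- from a floxed allele excised by a CMV-cre transgene, so that every tissue lacked the protein, and their wild-type (WT) controls were Hp1a+/+ littermates. HP1γ KO mice were Hp1g flox/flox with Cd4-cre, which acts in T cells, and their controls were floxed littermates without Cre. Both lines were on a mixed 129/Sv and C57BL/6 background. Per the study's methods, mice were littermates of matched sex, 6 to 12 weeks of age, and males were used for sequencing. Naive cells (CD4+ CD62L+ CD44-/low) came from untransplanted mice by magnetic selection. Tconv were naive cells of each genotype injected into irradiated C57BL/6J or congenic B6 hosts along with bone marrow from C57BL/6J and from B6D2F1 mice. They were recovered 3 weeks later and sorted as TCR Vβ6+ donor cells. Tconv with Treg were the same after co-injection of ex vivo expanded WT regulatory T cells from Foxp3-Thy1.1 mice. Naive and transferred cells therefore differed in host, selection and priming at once, which cannot be told apart. The labels do not say that replicates came from separate mice, so p-values measure only the spread between these libraries, which may be technical.

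The libraries held between 1.49 and 96.8 M reads in peaks. The study left out 3 HP1α libraries for low signal (WT Tconv with Treg replicate 3 and KO Tconv with Treg replicates 2 and 3), so HP1α Tconv with Treg rested on 2 WT and 1 KO libraries, and some values are also given with all 18 HP1α libraries. The 2 WT libraries kept in that group held 12.7 and 1.49 M reads. The biological coefficient of variation was 26.6% in the HP1α fit and 22.2% in the HP1γ fit. Levels are in CPM, counts per 1 M reads in peaks with library totals scaled by TMM factors over all 36 libraries. Of 8 T cell markers, 7 had a TSS peak in the table, and their summed level was 604 to 1070 CPM in HP1α Tconv with Treg and 827 to 1440 CPM elsewhere. Of 6 B cell markers only Pax5 had one, at 13.3 to 17.1 CPM in HP1α WT Tconv with Treg, 8.32 to 11 CPM in HP1γ KO Tconv with Treg, at most 3.72 CPM in naive cells and 4.52 to 6.76 CPM in Tconv. The CD4 and CD8 markers summed to 515 to 753 CPM in HP1γ KO libraries and to at most 144 CPM in all others. Cd4 was higher in HP1γ KO cells by a log2 fold change of 2.77 (naive), 2.55 (Tconv) and 2.6 (Tconv with Treg), and Cd8b1 by 0.02 in naive cells. Only HP1γ KO cells carried Cd4-cre, and the part of this transgene in the Cd4 values was not tested. Loss of the targeted exons was not checked here. These counts come from bulk cells, in which fewer cells with an open site and less opening per cell cannot be told apart.

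T cells survive by balancing proteins of the BCL-2 family at the mitochondrion. Bcl2, Bcl2l1 (BCL-XL), Mcl1 and Bcl2a1b (a copy of A1) encode guardians that hold the pore-forming proteins BAX and BAK in check, and Bcl2l11 encodes BIM, a BH3-only protein that binds the guardians and starts death when cytokines are withdrawn or after strong antigen stimulation. Fas is a death receptor, and Cflar encodes c-FLIP, which blocks caspase-8 at that receptor. Naive T cells depend on BCL-2 and MCL-1, and BCL-XL, A1 and c-FLIP are known to be induced by antigen signals. HP1 proteins are readers of a silencing mark, and the comparisons asked where these loci opened or closed upon priming, upon exposure to Treg and upon loss of either protein.

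Sequences of 5 peaks named in the results below are shown first, as their central 300 bases on the + strand of GRCm39. Distances are counted from the canonical TSS in the direction of the gene. Capitals mark matches on either strand to 11 short motifs: AP-1 (TGANTCA), NFAT (TGGAAA), ETS (CAGGAAG), RUNX (TGTGGTT), TCF-LEF (CTTTGAA or CTTTGAT), FOXO (GTAAACA), STAT (TTCNNNGAA), NF-kB (GGGNNTTTC), IRF (GAAANNGAA), the letters AGATAA for GATA factors and KLF (GGGTGTG), of which ETS and NFAT share the letters GGAA. The intronic Bcl2 peak at +165.0 kb (chr1:106476881-106477180) and the Bcl2a1b peak at +6.6 kb (chr9:89087671-89087970) are shown because they changed between naive cells and Tconv. The Bcl2 peak at +147.7 kb (chr1:106494201-106494500), which overlaps an exon of the lncRNA D630008O14Rik, and the Bcl2l11 peak at -8.2 kb (chr2:127959606-127959905), inside the neighbouring gene Acoxl, are shown because they were higher in Treg-exposed than in other HP1α WT Tconv and in HP1γ KO than in WT Tconv with Treg. The Mcl1 peak at -13.2 kb (chr3:95552726-95553025), over an exon of the lncRNA Gm64358, is shown because it was lower in Treg-exposed than in other HP1α WT Tconv.
Bcl2 +165.0 kb: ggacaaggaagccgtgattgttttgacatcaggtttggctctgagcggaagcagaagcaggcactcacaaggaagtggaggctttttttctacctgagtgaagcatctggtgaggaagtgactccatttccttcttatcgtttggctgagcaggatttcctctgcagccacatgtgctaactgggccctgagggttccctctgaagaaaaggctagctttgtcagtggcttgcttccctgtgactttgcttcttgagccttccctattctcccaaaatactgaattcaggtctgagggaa
Bcl2a1b +6.6 kb: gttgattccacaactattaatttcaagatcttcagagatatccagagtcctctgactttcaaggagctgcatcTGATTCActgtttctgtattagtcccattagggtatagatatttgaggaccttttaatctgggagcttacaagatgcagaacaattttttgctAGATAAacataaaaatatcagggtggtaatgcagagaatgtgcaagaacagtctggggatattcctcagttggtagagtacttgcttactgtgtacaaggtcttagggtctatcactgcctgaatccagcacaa
Bcl2 +147.7 kb: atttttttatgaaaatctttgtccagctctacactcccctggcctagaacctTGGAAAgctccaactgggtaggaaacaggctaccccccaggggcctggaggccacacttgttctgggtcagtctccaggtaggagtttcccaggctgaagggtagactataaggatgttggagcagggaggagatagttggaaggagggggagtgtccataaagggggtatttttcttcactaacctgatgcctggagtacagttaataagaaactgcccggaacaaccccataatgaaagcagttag
Bcl2l11 -8.2 kb: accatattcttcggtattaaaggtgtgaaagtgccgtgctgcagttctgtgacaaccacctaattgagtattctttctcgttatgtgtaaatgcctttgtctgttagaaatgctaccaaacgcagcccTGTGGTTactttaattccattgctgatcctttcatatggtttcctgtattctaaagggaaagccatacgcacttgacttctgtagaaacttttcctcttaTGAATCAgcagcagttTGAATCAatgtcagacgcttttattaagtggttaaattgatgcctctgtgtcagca
Mcl1 -13.2 kb: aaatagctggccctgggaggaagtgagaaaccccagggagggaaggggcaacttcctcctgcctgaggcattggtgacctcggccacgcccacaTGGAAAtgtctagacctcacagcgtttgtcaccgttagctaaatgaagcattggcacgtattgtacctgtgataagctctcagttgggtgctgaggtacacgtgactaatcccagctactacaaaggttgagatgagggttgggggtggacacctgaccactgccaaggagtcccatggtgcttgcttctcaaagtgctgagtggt

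The Bcl2l11 window held AP-1 letters at 2 places and RUNX letters at 1, the Bcl2a1b window AP-1 and GATA letters, the Bcl2 +147.7 kb and Mcl1 windows NFAT letters, and the Bcl2 +165.0 kb window none of the 11. NFAT letters were in the windows of 36.9% of the member peaks and of 23.7% of all peaks, and AP-1 letters in 8.2% and 13%. For the other motifs the members' share was within 4 percentage points of that of all peaks. A match is a run of letters and not a measured site.

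The TSS peaks of all 7 genes were open in each of the 12 groups. Per kb of peak, means of the 3 libraries of a group, those left out by the study included, ran from 16.8 to 30.7 CPM at Bcl2, 20.8 to 41.5 at Bcl2l1, 13.2 to 30.4 at Bcl2l11, 13.9 to 23.7 at Cflar, 8.12 to 14.5 at Mcl1, 6.3 to 12.3 at Bcl2a1b and 6.46 to 11.9 at Fas. On the log2 CPM scale the span between the lowest and the highest group was 0.84 for Cflar, 0.85 for Mcl1, 0.90 for Bcl2 and Fas, 1.0 for Bcl2a1b, 1.04 for Bcl2l1 and 1.23 for Bcl2l11. For each of the 7 genes the lowest mean over all libraries was that of the WT or the KO group of HP1α Tconv with Treg. Without the 3 libraries left out by the study the spans were 0.60 (Cflar) to 1.2 (Bcl2l11). The lowest group was then HP1α WT Tconv for Bcl2 and Fas, HP1α WT naive for Bcl2a1b and HP1α WT Tconv with Treg for the other 4 genes. In HP1α Tconv with Treg 49.5% to 61.0% of the reads in peaks fell in peaks over a TSS, against 57.4% to 62.6% in the other 30 libraries, and the part of this in the low means was not tested.

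At the Bcl2 TSS, the 12 naive libraries lay between 6.89 and 7.04 log2 CPM and all 24 Tconv libraries between 5.35 and 6.83, so that the ranges did not overlap. At the Bcl2l11 TSS, naive libraries lay between 7.38 and 7.83 log2 CPM and Tconv libraries between 6.10 and 7.28, again without overlap. In WT cells of the HP1α line the Bcl2l11 TSS was lower in Tconv than in naive cells by a log2 fold change of -0.98 ± 0.15 (SE; edgeR adjusted p = 3.3e-05), and the Bcl2 TSS by -0.55 ± 0.12 (edgeR adjusted p = 0.000872). In the HP1γ line the same contrasts gave -0.15 ± 0.07 (edgeR adjusted p = 0.0768) and -0.17 ± 0.08 (edgeR adjusted p = 0.074), and whether the lines differ was not tested. None of these reached the fold required for a call. The Mcl1 TSS (6.79 to 7.11 log2 CPM in naive and 5.97 to 6.95 in Tconv libraries) and the TSS of Bcl2l1, Bcl2a1b, Fas and Cflar overlapped between naive cells and Tconv.

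In the order of group means, the Bcl2l11 TSS went from 7.63 ± 0.18 (SD, n = 3) log2 CPM in HP1α WT naive cells through 7.25 ± 0.02 in HP1γ WT Tconv to 6.40 ± 0.34 in HP1α WT Tconv with Treg. WT and KO naive means lay within their spread of each other in each line (7.63 ± 0.18 and 7.62 ± 0.02, and 7.47 ± 0.04 and 7.47 ± 0.11). The Bcl2l1 TSS ran the other way in the HP1γ line, from 6.77 ± 0.02 in WT naive cells to 7.31 ± 0.20 in WT Tconv (log2 fold change 0.61 ± 0.09, edgeR adjusted p = 6.07e-06). In the HP1α line it did not rise, at 6.89 ± 0.03 in WT naive cells and 6.65 ± 0.31 in WT Tconv. The Fas TSS was highest in HP1γ KO Tconv with Treg, at 5.82 ± 0.15, followed by HP1γ KO Tconv at 5.57 ± 0.15, and the libraries of these neighbours overlapped.

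**Figure D1:**
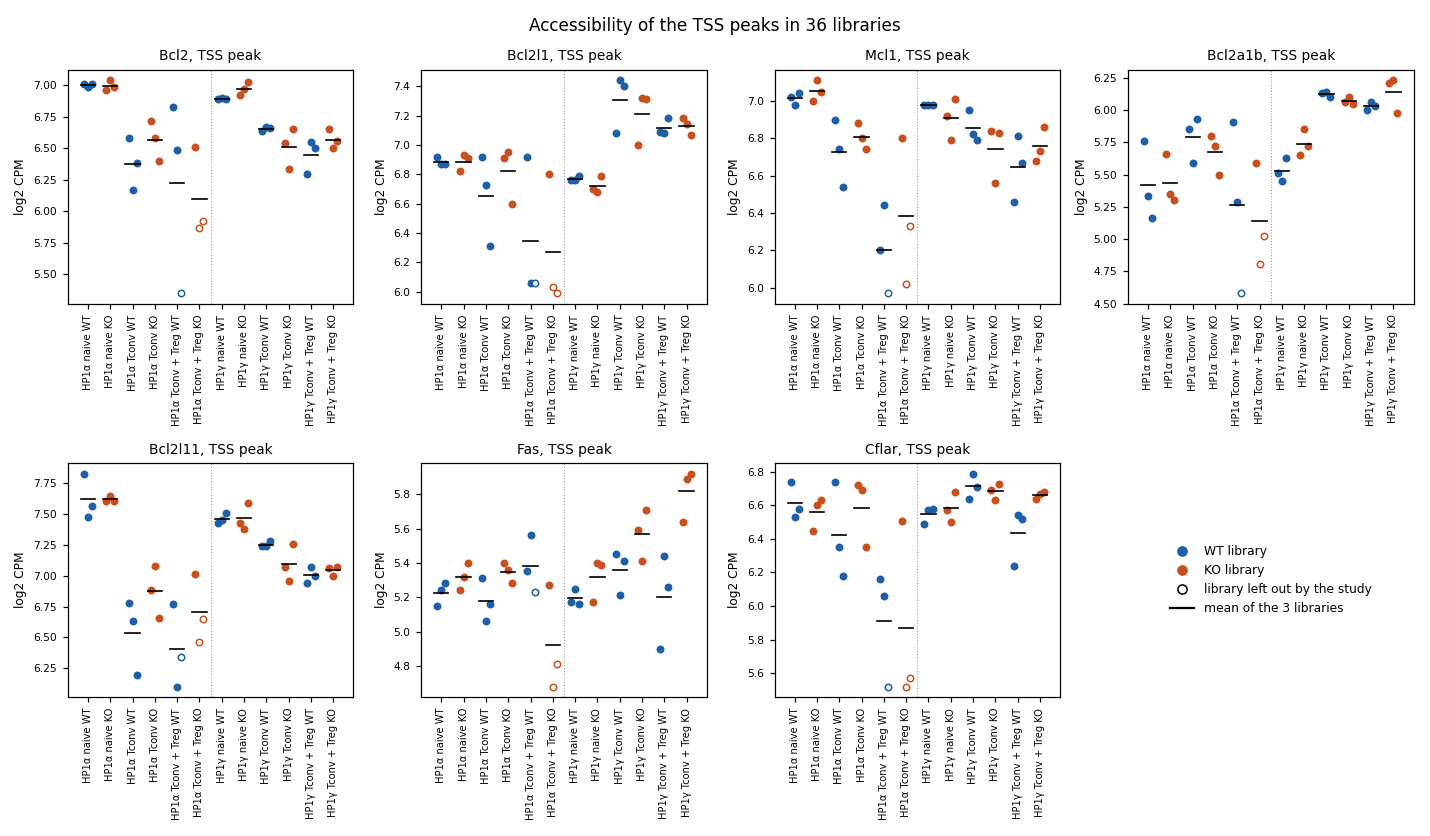
Accessibility of the TSS peak of each gene, in log2 CPM, in the 36 libraries (points, by group), with the mean of each group as a bar and the 3 libraries left out by the study as open points. Levels differ by at most 1.23 between group means, and the naive libraries of Bcl2 and Bcl2l11 lie above all Tconv libraries.

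Over the 12 group means, the TSS peaks of other genes with the pattern most like each member were Zfp644 (Pearson r = 0.997) and Nin (0.994) for Bcl2, St6galnac4 (0.988) and Junb (0.986) for Bcl2l1, Rnaseh2c (0.994) and Tfap4 (0.993) for Mcl1, Klf3 (0.990) and the peak shared by Lyzl4 and Vipr1 (0.972) for Bcl2l11, Csk (0.971) and Lax1 (0.962) for Bcl2a1b, Nfkbiz (0.944) and Cfap58 (0.933) for Fas, and Zc3h7a (0.990) and Hilpda (0.988) for Cflar. These are the highest of 12506 TSS peaks over 12 points that share depth and scaling, and are given as a description.

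In WT Tconv against WT naive cells, peaks at the guardians Bcl2l1, Bcl2a1b and Mcl1 and at Cflar and Fas that were called in both lines were higher. In the introns of Bcl2 11 of 38 peaks were called lower in both lines and 2 higher, and Bcl2l11 changed in both directions along its locus. A peak was called when the adjusted p was under 0.05 and the log2 fold change beyond 1. In the HP1α line 26 members were called higher and 25 lower, against 24.9% higher and 17.5% lower among all peaks, and in the HP1γ line 29 higher and 36 lower, against 24.5% and 22.0%. The members' shares were 21.3% and 20.5%, and 23.8% and 29.5%. The median log2 fold change of the members was -0.31 and -0.20, beside -0.03 and 0.08 over all peaks. In both lines 25 members were called higher and 23 lower (all peaks 21.5% and 16.4%), and 0 members were called in opposite directions. Pax5 was at 2.38 to 3.72 CPM in HP1α WT naive cells and 4.59 to 6.33 CPM in WT Tconv, and at 2.73 to 3.46 against 4.57 to 6.13 CPM in the HP1γ line. The 4 myeloid markers with a TSS peak summed to 32.7 to 40.9 against 44.0 to 47.1 CPM, and to 35.3 to 36.4 against 45.5 to 50.2 CPM. Neither overlapped in either line. Among the myeloid markers only Cebpa was called higher (log2 fold changes 2.18 and 1.93), and Itgam was called lower in the HP1α line (-1.33). The 2 erythroid markers with a TSS peak summed to 3.09 to 4.19 against 1.52 to 2.12 CPM and 3.14 to 3.71 against 0.684 to 2.33 CPM, without overlap. They moved in opposite directions, with Gata1 called lower (log2 fold changes -1.48 and -1.91) and Hbb-bs called higher (2.91 and 3.5). The 3 regulatory T cell markers went from 214 to 261 CPM down to 127 to 173 CPM in the HP1α line and overlapped in the HP1γ line (194 to 204 and 175 to 202 CPM), while Eomes, the only NK cell marker with a TSS peak, overlapped in the HP1α line (17.2 to 26.6 and 18.8 to 36.6 CPM) and was higher in the HP1γ line (17.6 to 19.2 against 22.9 to 27.6 CPM). The CD4 and CD8 markers summed to 133 to 143 against 94.1 to 107 CPM and 135 to 144 against 116 to 123 CPM, with Cd8b1 called lower (-2.91 and -3.26) and Cd4 not called (-0.05 and 0.21). The 7 T cell markers overlapped in the HP1α line (1080 to 1250 and 827 to 1140 CPM) and summed higher in the HP1γ line (1020 to 1060 against 1160 to 1440 CPM). The part of all these markers in the priming calls was not tested.

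By gene, 12 of the 46 Bcl2 peaks were called lower in both lines and 3 higher. The count was 3 of 7 higher for Bcl2l1, 3 of 4 for Bcl2a1b, 2 of 5 for Mcl1, 6 of 13 for Cflar and 1 of 7 for Fas, with 0 lower at each of these 5 genes by edgeR in both lines. At Bcl2l11, 7 of 40 were higher and 11 lower in both lines. Its 15 upstream peaks held 7 of the lower and 0 of the higher calls, and its 18 downstream peaks held 6 of the higher and 2 of the lower calls. Of the 9 peaks over a TSS only 1 was called in both lines, an alternative start of Cflar at +13.9 kb (log2 fold changes 1.78 ± 0.14 and 1.84 ± 0.15).

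The Bcl2 peak at +165.0 kb lies in an intron near the 3′ end of the gene. It stood at 4.09, 4.23 and 4.17 log2 CPM in the HP1α WT naive libraries and at 1.94, 2.24 and 2.06 in WT Tconv. In the HP1γ line it was 4.18, 4.29 and 4.37 in WT naive cells and 2.35, 2.31 and 1.99 in WT Tconv. All WT naive libraries were above all WT Tconv libraries, with log2 fold changes of -2.10 ± 0.16 (edgeR adjusted p = 5.08e-09) and -2.0 ± 0.15 (7.77e-10). Against this trend, the peak at +3.9 kb over a Bcl2 UTR was higher in Tconv (1.28 ± 0.18 and 1.34 ± 0.19), although with offsets fitted to GC content the HP1α value was 0.70 and no longer called. The intronic peak at +98.6 kb was higher too, by 1.58 ± 0.48 in the HP1α line and 3.50 ± 0.34 in the HP1γ line.

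Bcl2l11, the gene for BIM, changed at both ends of its locus. Its peak at +33.8 kb, over the last exon and 3′ UTR, was 5.46, 4.75 and 4.80 log2 CPM in HP1α WT naive cells and 1.13, 2.25 and 2.2 in WT Tconv, and 5.39, 5.35 and 5.33 against 1.23, 1.60 and 0.97 in the HP1γ line. The log2 fold changes were -3.38 ± 0.38 (edgeR adjusted p = 6.51e-07) and -4.02 ± 0.21 (8.96e-12). Downstream, the peak at +103.9 kb was at -2.37, -2.81 and -3.90 log2 CPM in HP1α WT naive cells and at 0.20, 0.11 and -0.71 in WT Tconv (log2 fold changes 3.66 ± 0.46 and, in the HP1γ line, 3.45 ± 0.51). All WT Tconv libraries were above all WT naive libraries of the line, at a low level throughout. The peaks at +64.1 and +209.7 kb overlapped exons of Morrbid, a lncRNA known to act on Bcl2l11 in cis. The second of these was higher by 1.44 ± 0.18 and 1.99 ± 0.18 in Tconv, and the first was not called (-0.74 ± 0.36 and -0.15 ± 0.17).

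Among the genes whose calls in both lines were all higher, the Bcl2a1b peak at +6.6 kb stood at -1.83, -2.18 and -1.59 log2 CPM in HP1α WT naive cells and at 1.32, 1.45 and 1.38 in WT Tconv. The log2 fold changes were 3.47 ± 0.30 (edgeR adjusted p = 2.03e-08) and, in the HP1γ line, 4.29 ± 0.36 (2.42e-09). Bcl2a1b has near-identical copies. All 4 of its peaks aligned over their full length to sequence near Bcl2a1d with 97.2% to 98.8% identity, and over 48.4% to 100% of their length near Bcl2a1a. Reads with low mapping quality had been removed by the authors, so these counts are uncertain as values of 1 copy.

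The Cflar peak at +10.9 kb, in an intron, was 0.31, 0.41 and 0.57 log2 CPM in HP1α WT naive cells and 2.81, 2.27 and 2.2 in WT Tconv, which did not overlap (log2 fold changes 2.26 ± 0.22 and 2.83 ± 0.23, edgeR adjusted p = 1.1e-07 and 2.48e-09). The Cflar peak at +26.3 kb was higher too (2.75 ± 0.22 and 3.21 ± 0.50). Fas had a single called peak, at +4.9 kb in an intron, with -2.73, -1.45 and -2.11 log2 CPM in HP1α WT naive cells against 0.64, 0.38 and 0.55 in WT Tconv (2.71 ± 0.35 and 2.66 ± 0.37). At Bcl2l1 the intronic peak at +42.2 kb was higher by 1.15 ± 0.17 and 2.02 ± 0.12, and at +20.4 kb by 1.1 ± 0.16 and 1.38 ± 0.12. With the replicate block and GC offsets together the HP1α value at +20.4 kb was 0.96 and not called. At Mcl1 the upstream peaks at -6.4 kb (1.83 ± 0.21 and 1.91 ± 0.19) and -13.2 kb (1.26 ± 0.18 and 1.0 ± 0.14) were higher, while the TSS peak was not called (-0.19 ± 0.11 and -0.06 ± 0.09).

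**Figure D2:**
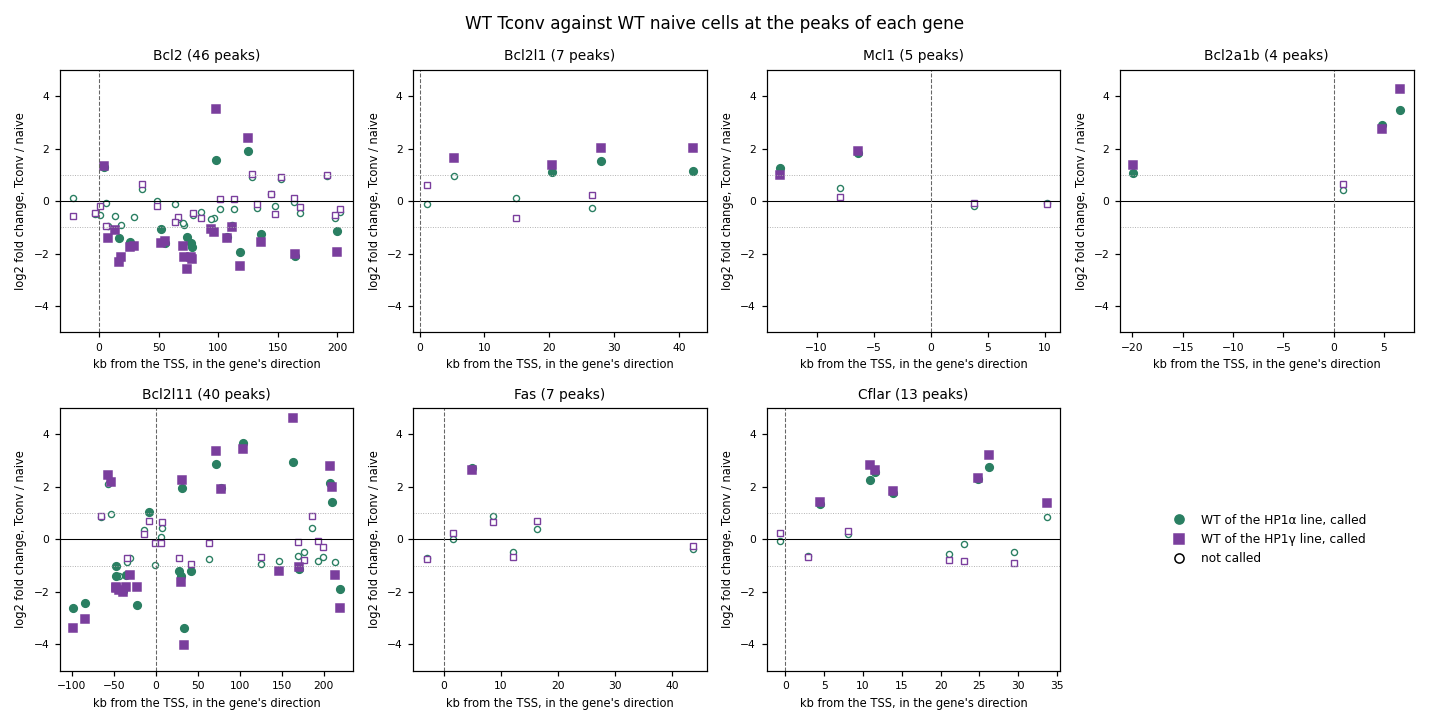
Log2 fold change of WT Tconv against WT naive cells (y axis) at each member peak by its distance in kb from the canonical TSS (x axis, in the direction of the gene), for the HP1α line (circles) and the HP1γ line (squares), filled where called. Bcl2 is mostly below 0, with 12 peaks called lower in both lines, and Bcl2l1, Bcl2a1b, Mcl1, Fas and Cflar carry only higher calls in both lines.

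The reads outside the TSS peaks, summed per gene, moved down at Bcl2 and Bcl2l11 and up at Bcl2l1 and Bcl2a1b. Group means of the summed level went from 8.66 (HP1α WT naive) to 8.07 log2 CPM (WT Tconv) at Bcl2, from 8.21 to 7.43 at Bcl2l11, from 5.76 to 6.67 at Bcl2l1 and from 1.52 to 3.38 at Bcl2a1b, and in the HP1γ line from 8.79 to 8.14, 8.54 to 8.03, 5.86 to 7.53 and 1.13 to 3.32. The sum at Cflar also went down, from 6.07 to 5.77 and from 6.37 to 5.91, although its peaks called in both lines were higher. Sums at Mcl1 (6.05 to 6.12 and 6.29 to 6.44) and Fas (5.15 to 5.26 and 5.11 to 5.21) moved less. In KO cells the calls upon priming were 25 higher and 39 lower in the HP1α line (all peaks 23.5% and 19.0%) and 29 and 37 in the HP1γ line (22.4% and 20.6%).

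The other genes of the pathway, 40 with 263 peaks, were called higher more often than lower upon priming. In WT cells 87 of these peaks were called higher and 21 lower in the HP1α line (33.1% and 7.98%), and 94 and 21 in the HP1γ line (35.7% and 7.98%), beside 24.9% and 17.5%, and 24.5% and 22.0%, of all peaks. All peaks were thus also called higher more often than lower. For the BH3-only genes other than Bcl2l11 (Bad, Bid, Bik, Bmf, Bbc3, Pmaip1, Hrk, Bnip3 and Bnip3l), 19 and 20 of 48 peaks were higher and 2 and 4 lower. For caspases and the apoptosome the counts were 22 and 21 of 54 higher and 1 and 0 lower, for death receptors and ligands 22 and 28 of 75 higher and 11 and 10 lower, and for the receptor complex 19 and 22 of 61 higher and 5 and 5 lower. The other anti-apoptotic genes, caspase inhibitors included, had 5 and 3 of 22 peaks higher and 2 and 2 lower, and neither line had a call at the 3 peaks of the effectors Bax and Bak1.

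Loss of HP1α left these loci without a call in naive cells and Tconv. In naive KO against WT cells edgeR called 0 of 122 members (all peaks 0.00559%), DESeq2 called 0 (0.00979%), and 1 had an unadjusted p under 0.05 (all peaks 1.17%). In Tconv edgeR called 0 (all peaks 0.021%), DESeq2 0 (0.0126%), and 5 (4.1%, beside 4.82% of all peaks) had an unadjusted p under 0.05. The smallest adjusted p in Tconv was 0.872, at the Bcl2l11 peak at +71.4 kb (-0.73 ± 0.28). In Tconv with Treg edgeR again called 0 (all peaks 1.63%), DESeq2 called 1 (3.41%), and 16 members (13.1%, beside 16.3% of all peaks) had an unadjusted p under 0.05. With 1 KO library in this comparison, a simulated log2 fold change of 2 was recovered at 48% of the peaks, so smaller changes were often not detectable here.

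The values in Treg-exposed HP1α cells had the same sign along some genes. All 5 Mcl1 peaks and 6 of the 7 Bcl2l1 peaks were higher in KO than in WT cells, with medians of 0.71 and 0.18, while 31 of the 46 Bcl2 peaks were lower, with a median of -0.20, beside -0.11 over all peaks. The Mcl1 peak at -13.2 kb was 3.72 log2 CPM in the KO library kept by the study and 2.26 and 2.11 in the WT libraries, a log2 fold change of 1.49 ± 0.45 (edgeR adjusted p = 0.102). The libraries left out stood at 3.06 and 2.69 (KO) and 2.12 (WT), so that KO and WT did not overlap with these included, and with all 18 libraries the value was 1.31 ± 0.44 (adjusted p = 0.206). The smallest adjusted p was 0.0753, at the Bcl2 peak at +128.8 kb (-2.05 ± 0.58, and -1.68 ± 0.45 with all 18 libraries). For this comparison Pax5 was at 5.25 to 12.9 CPM in KO and 13.3 to 17.1 CPM in WT libraries and Eomes at 32.8 to 37.3 against 38.5 to 62.1 CPM, without overlap. The 7 T cell markers (658 to 1070 against 604 to 942 CPM) and 4 myeloid markers (44.8 to 63.4 against 43.5 to 68.1 CPM) overlapped. Their part in these values was not tested. Bcl2l1 is on the study's list of HP1α-dependent genes, which was drawn up partly on these libraries, so its values are no independent evidence.

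For loss of HP1γ, edgeR called no member in naive cells or Tconv and 15 of 122 in Tconv exposed to Treg. In the last of these, 6.48% of all peaks were called higher and 5.38% lower. In naive cells edgeR called 0 of 122 (all peaks 0.14%), DESeq2 0 (3.27%), and 13 had an unadjusted p under 0.05 (all peaks 8.98%). In Tconv edgeR called 0 (all peaks 3.35%) and DESeq2 1 (3.44%), and 32 (26.2%, beside 19.6% of all peaks) had an unadjusted p under 0.05. By the adjusted p alone 2 members were higher and 3 lower in Tconv (all peaks 2.49% and 2.92%), with folds under the limit. The higher ones were the Fas peak at +12.1 kb (0.86 ± 0.22, edgeR adjusted p = 0.0289) and the Bcl2l11 peak at -8.2 kb (0.89 ± 0.25, 0.0481), and the lower ones the Bcl2 peak at +165.0 kb (-0.81 ± 0.23, 0.0442), the Mcl1 peak at -13.2 kb (-0.53 ± 0.15, 0.042) and the Bcl2l11 peak at +64.1 kb (-0.67 ± 0.19, 0.0479). Without WT Tconv replicate 3 the number called was 7.

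In Tconv with Treg, 6 members were called higher and 9 lower in HP1γ KO than in WT cells (4.92% and 7.38%, beside 6.48% and 5.38% of all peaks), and the medians were -0.08 over the members and -0.02 over all peaks. The calls fell at Bcl2 (3 higher and 5 lower), Bcl2l11 (3 and 3) and Cflar (1 lower). The Cflar call, at +4.4 kb, was lost under 8 alternatives (-1.34 to -0.99), among them leaving out any of 5 of the 6 libraries. The Bcl2l11 call at +33.8 kb was lost with only the groups compared and without KO replicate 1 (-1.41 to -1.15). The members that rose lay in the introns of Bcl2 at +128.8, +144.5 and +147.7 kb and upstream of Bcl2l11 at -52.8, -34.1 and -8.2 kb. Among those that fell, the Bcl2 peaks at +165.0, +107.4, +78.5 and +51.7 kb and the Bcl2l11 peaks at -84.5 and +33.8 kb had been called lower upon priming in WT cells of both lines. The Bcl2l11 peak at +42.2 kb had been called lower in the HP1α line (-1.21 ± 0.24) and not in the HP1γ line (-0.96 ± 0.20), whereas the Bcl2 peak at +98.6 kb and the Cflar peak at +4.4 kb had been called higher. KO and WT libraries overlapped at the Bcl2 peaks at +128.8 and +78.5 kb and at no other called member. The number called was 6 with only the groups compared, 3 without KO Tconv with Treg replicate 1 and 8 without WT Tconv with Treg replicate 2.

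The Bcl2l11 peak at -8.2 kb, inside Acoxl, was at 4.59, 4.10 and 4.21 log2 CPM in HP1γ KO Tconv with Treg and at 3.12, 2.19 and 2.41 in WT. The groups did not overlap (log2 fold change 1.64 ± 0.22, edgeR adjusted p = 0.000124), and the value lay between 1.40 and 2.09 when 1 library of the groups compared was left out. In Tconv alone the same peak was 2.61, 3.19 and 3.17 in KO and 2.00, 1.73 and 2.60 in WT cells, so the groups did not overlap there either, although the lowest KO and the highest WT library nearly met. Naive libraries of both lines stood between 1.04 and 1.59.

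The Bcl2 peak at +147.7 kb was at 5.09, 4.2 and 4.74 log2 CPM in HP1γ KO and at 3.88, 3.46 and 3.79 in WT Tconv with Treg (1.01 ± 0.20, edgeR adjusted p = 0.00243). All KO libraries were above the WT libraries, but the peak was no longer called without KO replicate 1 or without WT replicate 2 (0.77 to 0.87). Its neighbours behaved alike, with 1.25 ± 0.25 at +144.5 kb (0.00244) and 0.99 ± 0.18 at +152.8 kb (0.00141, just under the fold required). The Bcl2 peak at +165.0 kb moved the other way, from 1.91, 2.48 and 2.14 in WT to 0.34, 1.08 and 0.82 in KO cells, which did not overlap (-1.43 ± 0.27, edgeR adjusted p = 0.00179). Higher and lower calls thus stood side by side in the introns of Bcl2, while its TSS peak was not called (0.12 ± 0.09).

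Fas was the gene whose peaks lay on 1 side. All 7 were higher in HP1γ KO Tconv with Treg, with a median of 0.57 and a range of 0.20 to 0.97, and 5 of them had an adjusted p under 0.05, beside 11.6% of all peaks that were higher by this rule, although none reached the fold for a call. The TSS peak was at 5.92, 5.64 and 5.89 log2 CPM in KO and at 5.44, 5.26 and 4.90 in WT cells (0.57 ± 0.13, edgeR adjusted p = 0.00455), and the peak at +12.1 kb at 2.42, 2.23 and 1.99 against 1.34, 1.28 and 1.22 (0.97 ± 0.18, 0.00126). KO and WT libraries did not overlap at either peak. Of the guardians, the 4 Bcl2a1b and 5 Mcl1 peaks had no call, with the Mcl1 values between -0.27 and 0.38, and at Bcl2l1 the peak at +26.6 kb was lower by an uncalled -0.97 ± 0.21 (edgeR adjusted p = 0.00414).

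In this comparison Pax5 was at 8.32 to 11 CPM in KO and 4.08 to 8.47 CPM in WT libraries, and Eomes at 29.6 to 71.1 against 20.3 to 32.2 CPM. The 7 T cell markers summed to 1190 to 1310 against 964 to 1220 CPM, and the 3 regulatory T cell markers to 186 to 195 against 145 to 187 CPM. The 4 myeloid markers summed to 58.1 to 74.3 against 43.9 to 49.5 CPM. Of these 4 only Cebpa was higher (log2 fold change 1.12, called), while Itgam was called lower (-1.32) and Cd14 (-0.09) and Spi1 (-0.1) were not called. The part of all these markers in the calls was not tested. Of the 263 peaks of the other pathway genes, 15 were called higher and 14 lower (5.7% and 5.32%).

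**Figure D3:**
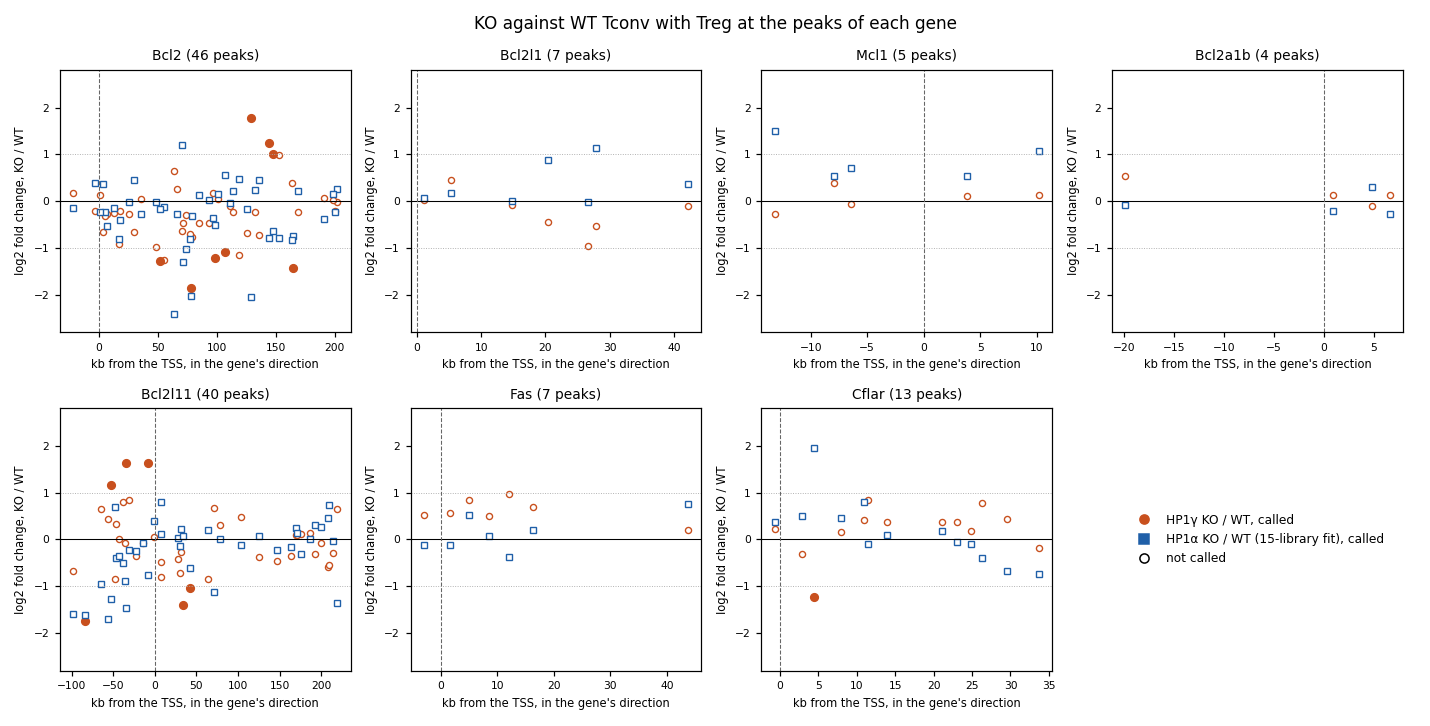
Log2 fold change of KO against WT Tconv with Treg (y axis) at each member peak by its distance in kb from the canonical TSS (x axis, in the direction of the gene), for HP1γ (circles) and HP1α (squares), filled where called. The 15 filled points are all HP1γ, at Bcl2, Bcl2l11 and Cflar, and the squares at Bcl2 between +144.5 and +152.8 kb and at Bcl2l11 at -8.2 kb lie on the other side of 0 from the circles.

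Exposure to Treg gave calls in HP1α WT and HP1γ KO cells that lay mostly at Bcl2 and Bcl2l11, the genes with the most peaks. Their number depended on single libraries and settings, and edgeR called no member in HP1γ WT cells. In HP1α WT cells, 10 of the 122 members were called higher and 3 lower in Tconv with Treg than in Tconv (4.92% and 1.84% of all peaks), with medians of 0.16 and 0.10. The higher calls were 6 at Bcl2 and 4 at Bcl2l11, and the lower calls 2 at Mcl1 and 1 at Bcl2l1. The count of 13 was 4 with depth as a covariate and 7 with only the groups compared. It was 0 without WT Tconv with Treg replicate 1, 6 without replicate 2 of that group and 5 without WT Tconv replicate 1, and with all 18 libraries 8 were higher and 2 lower (5.64% and 2.14% of all peaks).

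The Bcl2l11 peak at -8.2 kb went from 2.22, 2.09 and 1.46 log2 CPM in HP1α WT Tconv to 3.82 and 3.80 in WT Tconv with Treg (1.71 ± 0.25, edgeR adjusted p = 0.000626), from 187 and 26 reads in the latter pair, and the library left out was at 2.88. The Bcl2 peak at +147.7 kb went from 3.35, 3.51 and 3.90 to 4.65 and 4.80, with 4.08 in the library left out (1.21 ± 0.22, 0.00283). Those at +144.5, +152.8 and +128.8 kb rose by 1.25 ± 0.23, 1.22 ± 0.21 and 2.51 ± 0.56, the last from 40 and 4 reads. With all 18 libraries the 5 values, in the same order, were 1.5, 1.07, 1.18, 1.02 and 2.49, and all were called. In all of these every Treg-exposed WT library kept by the study was above every WT Tconv library. The Bcl2l11 peak and the Bcl2 peaks at +144.5, +147.7 and +128.8 kb were also called higher in HP1γ KO against WT cells exposed to Treg.

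The Mcl1 peak at -13.2 kb, which had risen upon priming, fell from 4.43, 3.90 and 3.50 log2 CPM in HP1α WT Tconv to 2.26 and 2.11 in WT Tconv with Treg (63 and 8 reads), and the library left out was at 2.12. The log2 fold change was -1.93 ± 0.41 (edgeR adjusted p = 0.00759), and without WT Tconv with Treg replicate 1 it was -2.11 and not called. With all 18 libraries it was -1.97 ± 0.40 and called. The Mcl1 peak at +10.2 kb fell by 1.16 on the log2 scale (± 0.32, edgeR adjusted p = 0.0316; -1.31 ± 0.37 and called with all 18 libraries), and the TSS peak gave -0.50 ± 0.16 (edgeR adjusted p = 0.063). The Bcl2l1 peak at +20.4 kb was lower by -1.08 ± 0.32 (edgeR adjusted p = 0.0434) from 2.68 and 2.43 against 3.84, 3.53 and 3.75, but the library left out stood at 3.92, and with all 18 libraries the value was -0.66 ± 0.29 (edgeR adjusted p = 0.168). The call was lost in 9 alternatives (-1.36 to -0.66), among them offsets by GC content or abundance, depth as a covariate and leaving out any of 4 libraries. Pax5 was at 13.3 to 17.1 CPM in this Treg-exposed group and 4.59 to 6.33 CPM in WT Tconv, Eomes at 38.5 to 62.1 against 18.8 to 36.6 CPM, and the 7 T cell markers at 604 to 942 against 827 to 1140 CPM. Their part in these values was not tested.

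In HP1α KO cells 1 member was called higher with Treg and 0 lower (0.264% and 0.284% of all peaks) by edgeR, again the Bcl2l11 peak at -8.2 kb (1.36 ± 0.20, adjusted p = 0.00507), with the KO library kept at 3.06 against 1.82, 1.65 and 1.66 in KO Tconv. The Treg-exposed group was this 1 library, which the fit assumes to vary like the other groups. The call was lost with the quasi-likelihood method of edgeR 3 and with only the groups compared (1.34 to 1.37). The libraries left out stood at 2.59 and 2.54, and with all 18 libraries the value was 1.19 ± 0.20 and called. DESeq2 also called 1 (0.136% of all peaks), and 10 had an unadjusted p under 0.05 (8.54%). In HP1γ WT cells edgeR called 0 (0.137% of all peaks) and DESeq2 3 (3.26%), and 20 had an unadjusted p under 0.05 (20.3%). The smallest adjusted p, 0.0763, was that of the Fas peak at +12.1 kb (0.96 ± 0.23). In HP1γ KO cells 9 of the 122 members were called higher and 0 lower (6.1% and 2.06% of all peaks). Of these, 4 were at Bcl2, 4 at Bcl2l11 and 1 at Fas, the last again the +12.1 kb peak (1.08 ± 0.17, edgeR adjusted p = 0.000522). The Fas call was lost with only the groups compared and without KO Tconv with Treg replicate 1 or KO Tconv replicate 3 (0.97 to 1.09). The number called was 1 with only the groups compared and 3 without KO Tconv with Treg replicate 1. Pax5 was at 8.32 to 11 CPM in these cells and 5.07 to 6.45 CPM in KO Tconv, and the 4 myeloid markers summed to 58.1 to 74.3 against 50.1 to 54.1 CPM. The 3 regulatory T cell markers summed to 186 to 195 against 179 to 183 CPM. None of these overlapped. Within these sums Itgam was called lower (log2 fold change -1.3), and Cebpa (0.82), Ikzf2 (0.52) and Il2ra (-0.65) were not called. Their part in the calls was not tested.

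These contrasts share libraries, since Tconv with Treg of 1 genotype enter both the KO comparison and the Treg comparison. Whether the Treg contrast differed between KO and WT cells was tested by an interaction term in each line, which called 0 members by edgeR in either (all peaks 0.0461% and 0.0014%) and 0 by DESeq2 (0.144% and 1.1%), with 11 and 13 members at an unadjusted p under 0.05 (10.3% and 12.8%). The calls made in 1 genotype and not in the other are therefore not shown to differ.

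The effect of losing HP1α and that of losing HP1γ were compared directly in Tconv with Treg, in 1 fit of the 33 libraries kept by the study. HP1α KO enters with 1 library, which the fit assumes to vary like the other groups. The KO effect in HP1α minus that in HP1γ was called at 13 members, 5 higher and 8 lower (all peaks 4.02% and 7.07%), with medians of 0.18 and 0.08. The lower ones were 5 at Bcl2 and 3 at Bcl2l11, among them the Bcl2l11 peak at -8.2 kb (-2.32 ± 0.44, edgeR adjusted p = 0.000914) and the Bcl2 peaks at +144.5 kb (-1.95 ± 0.47, 0.00716), +147.7 kb (-1.58 ± 0.38, 0.00659) and +152.8 kb (-1.70 ± 0.35, 0.00182). Each had a negative value for HP1α (-0.76, -0.78, -0.65 and -0.78, none called) and a positive value for HP1γ. The higher ones were the Mcl1 peak at -13.2 kb (1.84 ± 0.51, 0.0176), the Bcl2l1 peaks at +20.4 and +27.9 kb (1.42 ± 0.36 and 1.74 ± 0.51), the Bcl2 peak at +107.4 kb (1.73 ± 0.43) and the Cflar peak at +4.4 kb. With all 36 libraries the Bcl2l1 value at +20.4 kb was 0.89 and not called. The Cflar peak had 5, 0 and 2 reads in the HP1α WT Tconv with Treg libraries, so no fold is read from it.

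The calls turned on 1 library. Without HP1α WT Tconv with Treg replicate 1, which leaves the library with 1.49 M reads as the only WT one, 0 members were called by edgeR. The log2 values were then -2.35 at Bcl2l11 -8.2 kb, 1.92 at Mcl1 -13.2 kb, -1.19 at Bcl2 +152.8 kb and 1.05 at Bcl2 +107.4 kb. With 1 KO and 1 shallow WT library, the lost calls do not show that the differences were absent. HP1α and HP1γ mice also differed in the reach of the Cre and in their controls, which cannot be told apart from the protein lost. The same holds for any batch that went with the line. The paper also reports that Treg did not effectively hold back WT cells at the ratio of the HP1γ experiment, and the part of the ratio was not tested.

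**Figure D4:**
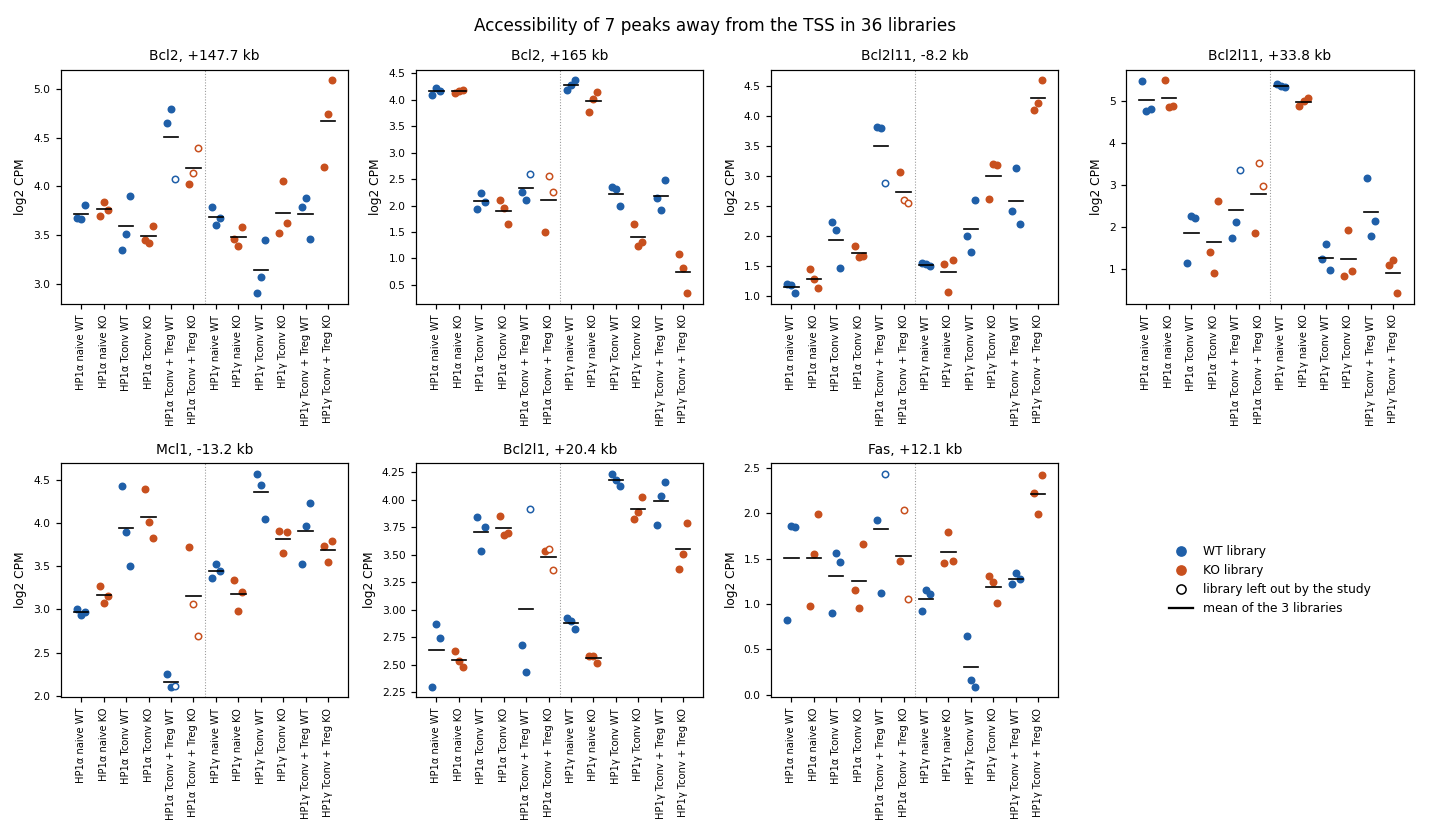
Accessibility in log2 CPM of 7 peaks away from the TSS in the 36 libraries (points, by group), with the mean of each group as a bar and the 3 libraries left out by the study as open points. The Bcl2l11 peak at -8.2 kb is highest in HP1γ KO Tconv with Treg (4.10 to 4.59), the Bcl2 peak at +165 kb lowest there (0.34 to 1.08), and the Mcl1 peak at -13.2 kb lowest in HP1α WT Tconv with Treg (2.11 to 2.26).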

How the data were processed

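Libraries were ATAC-seq of mouse splenic CD4 T cells, 12 groups of 3. Per the study's methods, the authors trimmed reads with Trim Galore 0.6.7, aligned them with BWA-MEM2 to GRCm39, removed low-quality, duplicate and blacklisted reads, called peaks per sample with HMMRATAC, merged them with BEDTools and deposited whole-read counts per merged peak from featureCounts 2.0.3. No coordinate shift for the transposase is stated there. Peaks were thus defined on all libraries together, and counts cover whole peaks. Of 71512 rows, 3 intervals of no width were left out. Reads in peaks were 1.49 to 96.8 M per library.

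Counts were analysed here with R 4.3.3 and edgeR 4.0.16 (TMM, filterByExpr, quasi-likelihood F test), 1 fit per line over its groups (HP1α: 15 libraries kept by the study), with Benjamini-Hochberg adjustment over the 71509 or 71508 peaks tested. All 122 members passed the filter. A call needed adjusted p under 0.05 and a log2 fold change beyond 1. Levels are log2 CPM after TMM over all 36 libraries, with a prior count of 2, and CPM are these values on the linear scale. The fits were tested on simulated data for KO against WT Tconv with Treg in each line. A log2 fold of 2 was recovered at 48% of 200 changed peaks for HP1α, and at 100% for HP1γ.

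The members and lists were chosen with earlier results of these data known. Named were each gene's TSS peak with the most reads and the called peak with the smallest p in each direction per comparison. Other peaks that are named, such as Bcl2 +144.5, +78.5, +63.5 and +51.7 kb, Bcl2l11 -84.5, -52.8, -34.1, +42.2 and +219.7 kb, Bcl2l1 +27.9 kb and Mcl1 +10.2 kb, were chosen after their values were seen. Bcl2 is also on an exhaustion signature used by the study.

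Alternatives were DESeq2 1.42.0 and its size factors, no filter, offsets by GC content or abundance, depth as a covariate, only the groups compared, all 18 HP1α libraries, a replicate block and leaving out each library. Whether replicate numbers pair libraries was checked by the correlation of same-numbered deviations from group means. All 3 pairs were above 0.1 for HP1α KO against WT naive cells (0.247 to 0.500), HP1γ KO against WT Tconv with Treg (0.147 to 0.323) and HP1γ WT Tconv with Treg against Tconv (0.202 to 0.286), and not in the other comparisons. Copies of Bcl2a1b were sought with BLAST 2.17.0. Positions and sequences are from GRCm39 and GENCODE, and the sequence of 1 further peak is not reported here.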

Additional observations from a re-analysis of the deposited data

Results flagged for a closer look

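At 13 members the effect of the knock-out in Tconv with Treg differed between the HP1α and the HP1γ line, by the test of that difference in 1 edgeR fit (HP1α minus HP1γ, log2 scale). The HP1α KO group was 1 library, assumed to vary like the other groups. The difference was negative at the Bcl2l11 peaks at -8.2 kb (-2.32, adjusted p = 0.000914), -34.1 kb (-2.99, adjusted p = 0.0223) and +219.7 kb (-1.91, adjusted p = 0.0456). It was also negative at the Bcl2 peaks at +152.8 kb (-1.70, adjusted p = 0.00182), +147.7 kb (-1.58, adjusted p = 0.00659), +144.5 kb (-1.95, adjusted p = 0.00716), +128.8 kb (-3.75, adjusted p = 0.0111) and +63.5 kb (-2.97, adjusted p = 0.0336). It was positive at the Bcl2 peak at +107.4 kb (1.73, adjusted p = 0.00793), the Bcl2l1 peaks at +20.4 kb (1.42, adjusted p = 0.0101) and +27.9 kb (1.74, adjusted p = 0.0244), the Mcl1 peak at -13.2 kb (1.84, adjusted p = 0.0176) and the Cflar peak at +4.4 kb (3.28, adjusted p = 0.0457). The Cflar peak had 5, 0 and 2 reads in the HP1α WT Tconv with Treg libraries, so its value is no measured fold, and its call was lost in 7 alternatives (3.08 to 10.4). With all 36 libraries the Bcl2l1 peak at +20.4 kb was no longer called (0.89). Among all peaks 4.02% were positive and 7.07% negative by the same rule. Without HP1α WT Tconv with Treg replicate 1 edgeR called 0 of the 13, in a comparison of 1 KO with 1 WT library of 1.49 M reads, with values of -2.35 at Bcl2l11 -8.2 kb, 1.92 at Mcl1 -13.2 kb, -1.19 at Bcl2 +152.8 kb and 1.05 at Bcl2 +107.4 kb.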

How the results depend on the processing

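Over 3574 alternatives for 221 values of named peaks, 48 lost and 23 gained the call, and 3503 stayed on the same side of the threshold. Of called values 0 changed sign, and of uncalled ones 160 did. Counts of called members moved in these cases. For HP1α KO against WT Tconv with Treg (0 called), the replicate block gave 2 and DESeq2 gave 1. For HP1α WT Tconv with Treg against Tconv (13), depth as a covariate gave 4 and only the groups compared 7, and leaving out 1 library gave 0 to 13. For the same contrast in KO cells (1), all 18 libraries gave 2, the quasi-likelihood method of edgeR 3 gave 0, only the groups compared 0, and leaving out 1 library 1 to 1. For HP1γ KO against WT Tconv (0), offsets by abundance, offsets by GC content, the replicate block with GC offsets and DESeq2 gave 1 each, and leaving out 1 library 0 to 7. For HP1γ KO against WT Tconv with Treg (15), only the groups compared gave 6 and leaving out 1 library 3 to 19. For HP1γ WT Tconv with Treg against Tconv (0), edgeR 3 gave 1 and DESeq2 3, and in KO cells (9) only the groups compared gave 1 and leaving out 1 library 3 to 12. The HP1γ interaction (0) gave 0 to 2 and the difference between the lines (13) gave 0 to 16 when 1 library was left out, and the latter gave 8 with depth as a covariate. Apart from fits with fewer libraries, the cause was not tested. Where the replicate numbers paired libraries, the block changed no call of a named peak. The edgeR 3 method, the block with GC offsets and leaving out libraries in the difference were chosen after seeing the data. HP1α Tconv with Treg rested on 1 KO and 2 WT libraries, 1 of them with 1.49 M reads. A simulated log2 fold of 2 was recovered there at 48% of the changed peaks, and the part of depth in this was not tested.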
